A study of Mus musculus with 5 samples.

Results

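The macrophage lineage transcription factors *Spi1*, *Fli1*, *Cebpa*, *Cebpb*, *Maf*, *Irf8*, *Runx1*, *Klf4* and *Pparg* were read in RNAseq libraries of macrophages sorted from mouse aortas. They are the 9 genes of the deposited table of 55487 genes that carry these symbols. They were listed by symbol, with earlier results of these data known. The 5 libraries compared 2 genotypes, *Zeb1*WT/*Apoe*KO (labelled WT, n = 2) and *Zeb1*∆M/*Apoe*KO (labelled KO, n = 3), and ask whether myeloid *Zeb1* changes the transcriptome of plaque macrophages. All mice were male, lacked *Apoe* and carried floxed *Zeb1*, and "KO" refers to *Zeb1* alone, which Cre from the *Lyz2* locus deletes in myeloid cells, neutrophils included. All were kept on chow until the age of 8 weeks and on a Western diet for the next 10 weeks. Viable CD45+ F4/80+ cells were sorted, with CD11b added to the gate in the study's methods. The study's methods describe its replicates in general as biologically independent, and for these libraries they state that cells of 3 mice were mixed per genotype. How the mixed cells were divided among the libraries is not described in the labels or methods, so that p-values here measure the spread between libraries, which may be partly technical.

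Macrophages take their identity from a small set of factors that bind together at their enhancers. PU.1, the product of *Spi1*, is the ETS factor that opens myeloid enhancers, and C/EBP, RUNX1 and IRF8 bind beside it. MAF restrains proliferation and favours the resident programme, KLF4 acts in monocytes and in alternative activation, and PPARγ is the fatty acid sensor that drives lipid handling in foam cells.

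Total counts lay between 20118545 and 50649912 per library, and 3 counts, the floor used here, was 0.0592 to 0.149 CPM, a count scaled to the size of its library, here its total. These floors cover counting error only. TMM normalization rescales library sizes by the typical gene, and all CPM below are on this scale unless total counts are named. On it, *Lyz2* had 22070 ± 688 CPM (SD, n = 2) in the WT libraries and 16890 ± 3370 CPM (SD, n = 3) in the KO libraries, and *Adgre1*, which encodes F4/80, had 1068 to 38190 counts. *Zeb1* itself had 22 counts in KO replicate 1 and 0 in the other 4 libraries, so that it checked no label. Of 8 macrophage markers, 5 to 7 exceeded 3 counts per library, with *Cd68* at 0 in WT replicate 1, *Itgam* at 0 in KO replicate 1 and *Mertk* at 0 outside KO replicate 1. Both replicate 1 libraries stood apart. They had 1713 (WT) and 864 (KO) genes above 100 counts, against 3168 to 4419 in the other 3 libraries. KO replicate 1 listed 20919 genes with at least 1 count, of which 91.8% had 1 to 50 counts, against 44.7% to 80.2% in the other libraries. In this library the highest of 12 markers of B cells, smooth muscle and adipocytes, *Ms4a1*, had 35 counts. There 2 of 4 B cell, 3 of 4 smooth muscle and 2 of 4 adipocyte markers had 0 counts. In the other 4 libraries all 12 stayed at 2 counts or fewer. These 12 markers were singled out after their values were seen.

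Promoter sequences from RefSeq (GRCm38.p6) were found for 6 of the 9 genes, with 10 start sites in all. There was no entry for *Spi1*, *Maf* and *Fli1*. The 250 bases before the start are shown for 3 genes. *Cebpb* was the gene whose genotypes did not overlap, *Cebpa* is its relative with counts in few libraries, and *Irf8* ranged from 3 to 32623 counts. The windows lie on the plus strand at chr2:167688665-167688914 for *Cebpb*, chr7:35119043-35119292 for *Cebpa* and chr8:120736108-120736357 for *Irf8*. Capitals mark a match to a TATA box (TATAAA) or to a C/EBP core (TTGCGC).
Cebpb: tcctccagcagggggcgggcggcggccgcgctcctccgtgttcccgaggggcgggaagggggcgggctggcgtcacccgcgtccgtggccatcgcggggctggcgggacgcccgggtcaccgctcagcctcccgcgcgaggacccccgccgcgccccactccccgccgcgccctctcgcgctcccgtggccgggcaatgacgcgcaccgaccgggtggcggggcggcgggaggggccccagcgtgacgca
Cebpa: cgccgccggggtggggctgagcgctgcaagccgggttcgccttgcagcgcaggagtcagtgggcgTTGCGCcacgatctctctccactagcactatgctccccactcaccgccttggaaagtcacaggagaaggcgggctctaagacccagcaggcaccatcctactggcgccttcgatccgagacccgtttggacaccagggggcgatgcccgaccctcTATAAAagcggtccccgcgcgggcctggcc
Irf8: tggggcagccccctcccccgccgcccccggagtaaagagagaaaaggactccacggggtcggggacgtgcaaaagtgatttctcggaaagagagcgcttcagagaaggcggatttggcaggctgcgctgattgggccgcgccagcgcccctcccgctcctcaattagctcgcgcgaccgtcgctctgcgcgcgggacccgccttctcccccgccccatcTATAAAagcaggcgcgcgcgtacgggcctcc

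Short cores were searched on both strands in these 250 bases. The TATA box was present in 3 of the 10 windows and in 12.4% of the 32851 mouse promoters of that length. The C/EBP core, present in 5.34% of promoters, occurred once, in *Cebpa*, 185 to 180 bases before the start. The TATA boxes of *Cebpa* and *Irf8* began 30 and 31 bases before the start. The PU.1 core GAGGAA was in 2 windows (*Runx1* and *Pparg*; 23.3% of promoters), the RUNX cores TGCGGT in 1 (another start of *Irf8*; 5.10%) and TGTGGT in 0 (14.0%), and the IRF core AANNGAAA in 2 (*Runx1* and *Pparg*; 21.3%). None of these letters occurred in the *Cebpb* window, of which 81.6% was G or C against a median of 52.4% over all promoters. These matches describe the sequence and not a bound site.

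All 9 genes exceeded 3 counts in at least 1 library, and 4 of them, *Spi1*, *Cebpb*, *Maf* and *Klf4*, did so in all 5. Of the 21705 genes above 3 counts in any library, 1085 (5.0%) did so in all 5. The number of the 9 genes above 3 counts was 5 and 7 in WT replicates 1 and 2, and 8, 5 and 9 in KO replicates 1, 2 and 3. KO replicate 3, the deepest library, was the only library with counts for all 9. Of the 8 genes counted in KO replicate 1, 5 had between 4 and 20 counts. The highest B cell, smooth muscle or adipocyte marker there had 35 counts. With that level as the floor, an alternative chosen after seeing the data, KO replicate 1 had 3 of the 9 genes, *Cebpb*, *Maf* and *Irf8*, and the number in the other 4 libraries was as before.

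**Figure D1:**
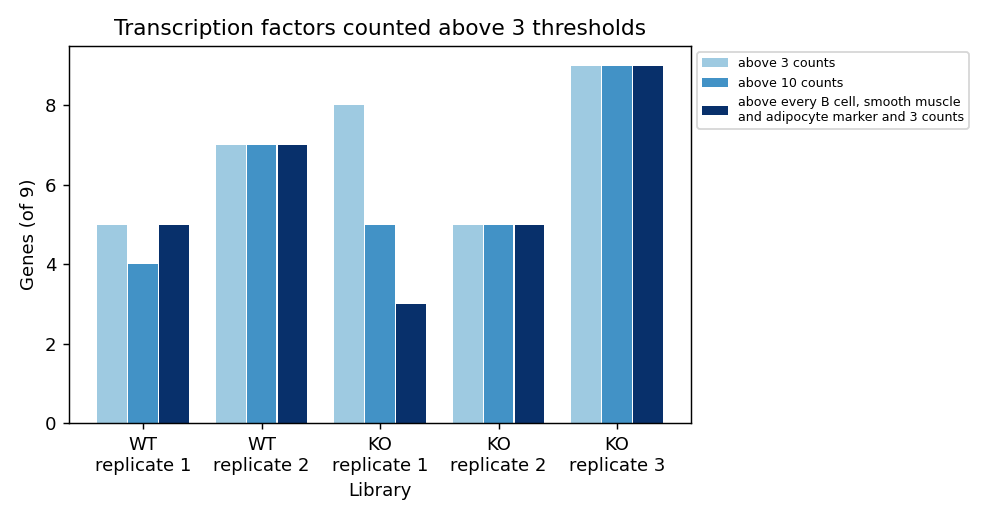
Number of the 9 transcription factors (vertical axis) above 3 counts, above 10 counts, and above both 3 counts and the highest of 12 B cell, smooth muscle and adipocyte markers, in each library (horizontal axis). In KO replicate 1 the number is 8, 5 and 3, and in KO replicate 3 it is 9 at each threshold.

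The ETS factor *Spi1* (ENSMUSG00000002111.8, GRCm38 chromosome 2, 91082390 to 91115756) had 616 and 15034 counts in WT replicates 1 and 2 and 15, 6854 and 3538 counts in KO replicates 1, 2 and 3. After TMM normalization these were 22.3 and 436 CPM against 1.24, 160 and 70.4 CPM. Both replicate 1 libraries were the lowest of the 5 for *Spi1*, as they were for *Maf*, *Runx1* and *Klf4*, and they also had the fewest genes above 100 counts. The part of this in the values was not tested. The genotypes overlapped. *Fli1* (ENSMUSG00000016087.13, chromosome 9, 32422204 to 32542861), an ETS factor of blood and endothelial cells, had 0 and 142 counts in the WT libraries and 20, 0 and 2115 counts in the KO libraries. It thus exceeded 100 counts in 2 libraries, 1 of each genotype. Endothelial cells also use *Fli1*, although a gate on CD45, F4/80 and CD11b should remove them. Of 4 endothelial markers (*Pecam1*, *Cdh5*, *Vwf* and *Kdr*), 1 and 2 exceeded 3 counts in the WT libraries and 2, 1 and 1 in the KO libraries. Their summed level was 72.1 to 72.3 CPM of total counts in the WT libraries and 0.17 to 51.9 CPM in the KO libraries. *Cdh5* was at 0 in all 5 libraries, whereas *Pecam1* had 2487 counts in WT replicate 2 and 2628 in KO replicate 3, the libraries in which *Fli1* was highest. *Kdr* went the other way, with 1455 counts in WT replicate 1, where *Fli1* had 0. It had 6 and 0 counts in WT replicate 2 and KO replicate 3. *Vwf* had 0 counts in both of these libraries. The part of endothelial cells in the *Fli1* values was not tested.

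Of the C/EBP factors, *Cebpb* (ENSMUSG00000056501.3, chromosome 2, 167688915 to 167690418), which drives inflammatory and emergency myeloid programmes, had 284 and 86 counts in the WT libraries and 581, 809 and 986 counts in the KO libraries. Its levels were 10.3 and 2.5 CPM in the WT libraries and 47.9, 18.9 and 19.6 CPM in the KO libraries. Every KO library was above both WT libraries, also when scaled to total counts (14.1 and 2.49 against 23.8, 22.6 and 19.5 CPM). Its levels spanned 19.2-fold between libraries, compared with 198-fold for *Maf*, 353-fold for *Spi1* and 1047-fold for *Klf4*. The median span of the 1085 genes above 3 counts in all libraries was 163-fold, and 21.7% of them spanned no more than *Cebpb*. *Cebpb* has a single exon, and 312 of its bases are also exon of *Tmem189* on the opposite strand. The counting is not stated to use strand, so that reads there cannot be told apart. *Tmem189* had 46 and 2 counts in the WT libraries and 2, 2227 and 65 counts in the KO libraries.

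*Cebpa* (ENSMUSG00000034957.10, chromosome 7, 35119293 to 35121928), the C/EBP factor needed for granulocyte and monocyte progenitors, had 0 counts in both WT libraries and 4, 0 and 856 counts in the KO libraries. The KO libraries averaged 5.79 ± 9.74 CPM (SD, n = 3). Set against the mean floor of 3 counts per WT library, this was at least 59.2-fold higher. The KO value rested on KO replicate 3, with 17.0 CPM, as the other two KO libraries had 0.330 and 0 CPM. *Cebpa* was thus not detectable in 3 of the 5 libraries at this depth. Neutrophils, most of which the gate on F4/80 should remove, share both C/EBP factors. Of 5 neutrophil markers (*S100a8*, *S100a9*, *Retnlg*, *Ly6g* and *Csf3r*), 4 exceeded 3 counts in each WT library and 2, 4 and 3 in the KO libraries. Their summed level was 880 to 3592 CPM of total counts in the WT libraries and 138 to 1502 CPM in the KO libraries, and *Ly6g* had at most 1 count in any library. The neutrophil levels of the genotypes overlapped. They were highest in WT replicate 1 and lowest in KO replicate 3, whereas *Cebpb* was lowest in WT replicate 2 and highest in KO replicate 1. Their part was not tested.

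*Maf* (ENSMUSG00000055435.6, chromosome 8, 115682942 to 115707794) had 19 and 4333 counts in the WT libraries and 94, 5836 and 6264 counts in the KO libraries. In the 3 libraries other than the replicate 1 libraries, its level was 126, 136 and 125 CPM, the first of these from a WT library. In both replicate 1 libraries it was 0.688 (WT) and 7.76 CPM (KO). *Maf* shares 440 exon bases with *Gm15655*, an antisense gene with 665 counts in KO replicate 2 and 0 elsewhere. *Klf4* (ENSMUSG00000003032.8, chromosome 4, 55527143 to 55532466) had 6 and 1080 counts in the WT libraries and 9, 1750 and 11427 counts in the KO libraries, and was also lowest in both replicate 1 libraries.

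*Irf8* (ENSMUSG00000041515.10, chromosome 8, 120736358 to 120756694), which with PU.1 directs monocyte and dendritic cell development, ran the other way in WT replicate 1. It had 32623 and 4184 counts in the WT libraries and 953, 3 and 8233 counts in the KO libraries. At 1181 CPM, WT replicate 1 held the highest *Irf8* level, against 121 CPM in WT replicate 2 and 78.6, 0.0701 and 164 CPM in KO replicates 1, 2 and 3. KO replicate 2 had 3 counts of *Irf8* and 6854 counts of *Spi1*, the gene of its partner. None of the dendritic cell markers *Flt3*, *Zbtb46*, *Xcr1*, *Clec9a* and *Cd209a* exceeded 3 counts in WT replicate 1 except *Zbtb46*, with 68 counts, and the 4 B cell markers were at 0 there. The 5 dendritic cell markers summed to 3.53 and 0 CPM of total counts in WT replicates 1 and 2 and to 0.2 to 430.5 CPM in the KO libraries, the highest being KO replicate 3, with 21805 counts of *Cd209a*. The gate on F4/80 should remove most dendritic cells. Their part in the *Irf8* level of that library was not tested. The tested genes nearest to *Irf8* in log2 CPM over the 5 libraries were *Ddx3x* (Euclidean distance 2.96), *Rbm3* (4.30) and *Cept1* (4.55). Each of these 3 genes had 0 counts in KO replicate 2.

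*Runx1* (ENSMUSG00000022952.17, chromosome 16, 92601466 to 92826149), needed for definitive blood formation and a repressor or activator of myeloid genes with its partner CBFβ, had 0 and 2015 counts in the WT libraries and 10, 835 and 812 counts in the KO libraries. At 58.5 CPM, WT replicate 2 was the highest, and KO replicates 2 and 3 were close together at 19.5 and 16.2 CPM. *Runx1* and *Fli1* are also used in T cells, which the gate on F4/80 and CD11b should remove, but T cell markers were not at 0. Of 5 such markers (*Cd3d*, *Cd3e*, *Cd3g*, *Cd2* and *Lck*), 2 and 5 exceeded 3 counts in the WT libraries and 1, 4 and 3 in the KO libraries. Their summed level ranged from 10.3 to 4096 CPM of total counts in the WT libraries and from 0.53 to 869 CPM in the KO libraries, with the highest value in WT replicate 2. *Cd3d* was at 0 in WT replicate 1 and in KO replicates 1 and 2. In KO replicate 2, however, *Cd3g*, *Cd3e*, *Lck* and *Cd2* had 13275, 1207, 964 and 46 counts. The part of T cells in these 2 results was not tested. In sorted bulk samples, fewer cells of a type and less RNA per cell cannot be told apart.

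*Pparg* (ENSMUSG00000000440.12, chromosome 6, 115360951 to 115490399) had 40 counts in KO replicate 3, or 0.796 CPM, and 0 counts in the other 4 libraries. A count of 0 allows up to 3 counts, so that *Pparg* was not detectable in those libraries. Adipocytes express this gene at high levels, and the 4 adipocyte markers *Adipoq*, *Plin1*, *Cidec* and *Lep* had at most 1 count in KO replicate 3. The part of adipocytes in the *Pparg* counts was not tested.

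**Figure D2:**
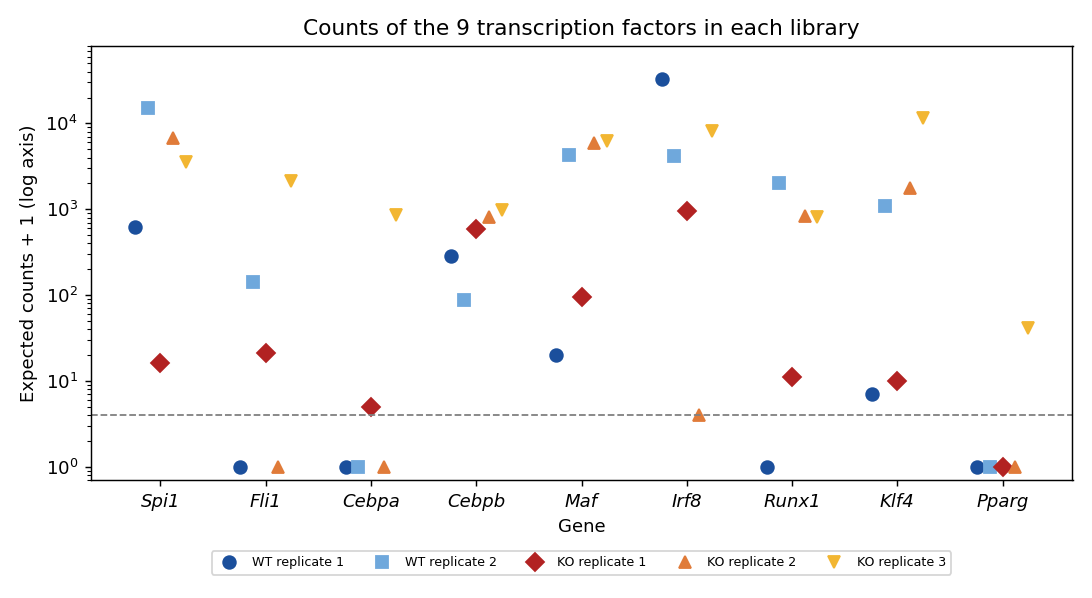
Expected counts plus 1 (vertical log axis) of the 9 genes (horizontal axis) in the 5 libraries, 1 point per library. The dashed line is the floor of 3 counts, and *Cebpb* is the gene whose 5 points lie closest together, from 86 to 986 counts.

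To compare levels between genes, CPM were divided by exon length in the GENCODE M21 annotation of GRCm38. The order by median CPM per kilobase was *Spi1* (26.1), *Irf8* (17.2), *Maf* (15.1), *Cebpb* (12.6), *Klf4* (10.3), *Runx1* (1.34) and *Fli1* (0.473), followed by *Cebpa* and *Pparg* with a median of 0. The ranges over the 5 libraries overlapped for every pair of neighbours in this order. *Irf8* led in WT replicate 1, *Spi1* in WT replicate 2 and KO replicate 2, *Cebpb* in KO replicate 1 and *Klf4* in KO replicate 3. Of the summed CPM per kilobase of the 9 genes, *Irf8* made up 91.6% in WT replicate 1 and 8.10% in WT replicate 2, and *Spi1* made up 4.53% and 76.2%. The leading factor therefore differed between libraries of the same genotype.

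**Figure D3:**
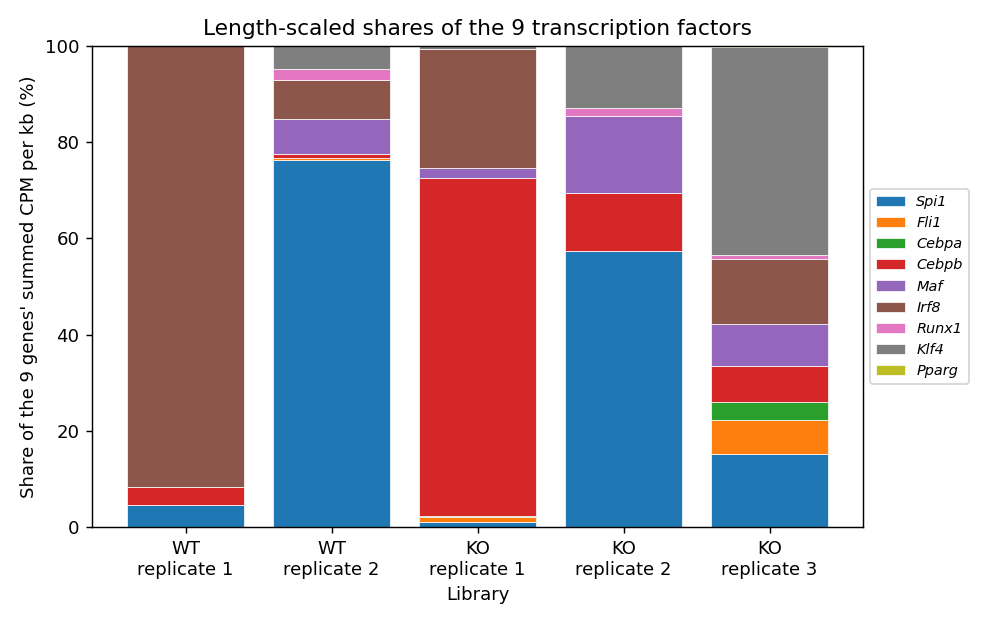
Share in percent (vertical axis) of each gene in the summed CPM per kilobase of exon of the 9 genes, stacked for each library (horizontal axis). *Irf8* fills 91.6% of WT replicate 1, *Spi1* 76.2% of WT replicate 2 and 57.4% of KO replicate 2, *Cebpb* 70.3% of KO replicate 1 and *Klf4* 43.3% of KO replicate 3.

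The genotypes were compared with edgeR's quasi-likelihood test over 7905 genes that passed a filter on low counts. Of the 9 genes, 7 passed it, and *Cebpa* and *Pparg* did not. None of the 7 had an adjusted p under 0.05 (0 genes) or an unadjusted p under 0.05 (0 genes). Over all genes tested, 0 genes (0%) passed with adjustment and 86 genes (1.09%) without. The log2 fold change, KO minus WT, was positive for 4 genes and negative for 3, with a median of 0.50, against 0.78 over all 7905 genes, of which 60.9% were positive. DESeq2 with default options, the study's tool, called 0 of the 8 genes that had an adjusted p, while it called 790 of 6497 genes overall (12.2%). It assigned *Pparg* no adjusted p. With standard errors of 3.71 to 5.42 on the log2 scale for the 7 genes, the lack of a call does not show that the genotypes were alike.

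*Cebpb* had means of 6.39 ± 5.51 CPM (SD, n = 2) in the WT libraries and 28.8 ± 16.6 CPM (SD, n = 3) in the KO libraries. On the log2 scale the KO libraries were higher by 2.17 (standard error 5.11, with an adjusted p in edgeR of 1), or 1.39 above the median of all genes tested. With total counts in place of TMM it was 1.41. The two-sided exact permutation test of log2 CPM gave p = 0.1, the smallest that 2 libraries against 3 allow. *Cebpb* was the 1 tested gene of the 7 without overlap between genotypes. Among all genes tested, 6.68% were without overlap and higher in the KO libraries, and 4.54% without overlap and lower, so that 1 of 7 is near that background. Without KO replicate 1 the log2 fold change of *Cebpb* was 1.29.

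*Irf8* had a log2 value of −3.01, KO minus WT (standard error 3.71, and 1 as its adjusted p in edgeR), with means of 651 ± 749 CPM (SD, n = 2) and 80.9 ± 81.9 CPM (SD, n = 3). Without WT replicate 1 the value was −0.58. For *Spi1* this value was −1.57 (standard error 4.29, and 1 as its adjusted p in edgeR), with means of 229 ± 293 and 77.3 ± 79.7 CPM. Without WT replicate 2 it was 1.81, so that the direction rested on that library. The genotypes overlapped for both genes. The differences in mean log2 CPM were −4.99 for *Irf8* and −2.01 for *Spi1* (exact permutation p = 0.5 and 0.7).

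For *Klf4* the log2 fold change was 2.51 (standard error 5.42), and without KO replicate 3 it was 0.40. For *Fli1* it was 2.82 (standard error 4.90), and −1.10 without KO replicate 3. For *Maf* it was 0.50 (standard error 4.84), and −0.38 without WT replicate 1. For *Runx1* it was −1.26 (standard error 4.61), and 11.72 without WT replicate 2, which leaves 1 WT library with 0 counts. The difference in mean log2 CPM of *Runx1* was 1.81, so that its direction also depended on the measure. The adjusted p in edgeR was 1 for all 4 genes, and the exact permutation p was 0.5 for *Klf4*, 0.8 for *Fli1*, 0.6 for *Maf* and 0.7 for *Runx1*. For *Cebpa* and *Pparg* the exact permutation p was 0.4 and 1.

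**Figure D4:**
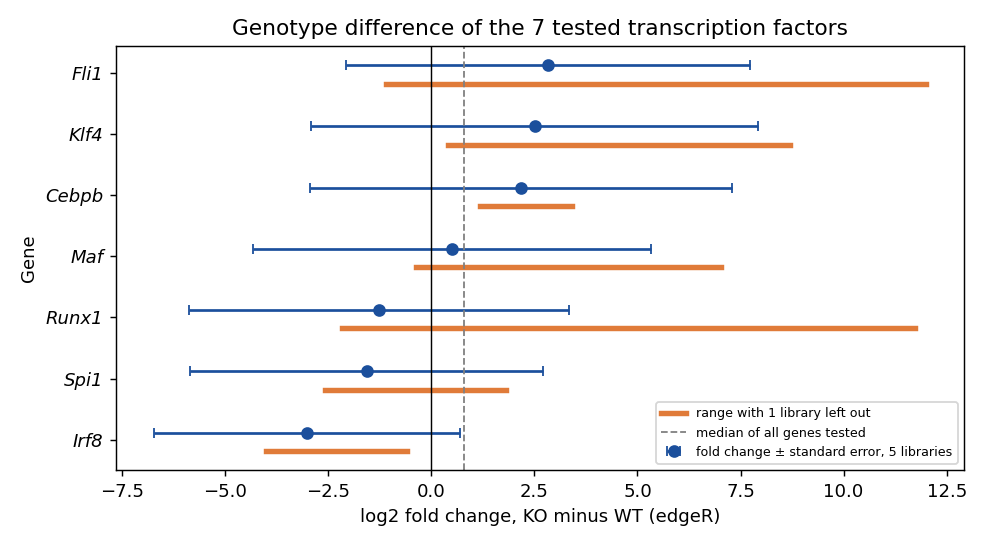
Log2 fold change, KO minus WT (horizontal axis), of the 7 tested genes (vertical axis), with bars of ± 1 standard error and, below each, the range when 1 library is left out. The dashed line is the median of all genes tested, 0.78. The bars of all 7 genes cross 0, and the left-out ranges of *Spi1*, *Maf*, *Runx1* and *Fli1* lie on both sides of 0.

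Other members of the same families and their partners were read as a list of 37 genes. Of these, 25 were tested, 0 had an adjusted p under 0.05 and 0 an unadjusted p under 0.05 with edgeR. The log2 fold change was positive for 13 and negative for 12, with a median of 0.35. Over all genes tested, 60.9% were positive. Without overlap, 4 of the 25 were higher in the KO libraries and 2 lower, against 6.68% and 4.54% of all genes tested. More than 3 counts in all 5 libraries were found for 6 of them, of which *Elf1*, *Ets2*, *Irf2*, *Gabpa* and *Klf10* are given here. The ETS factor *Elf1* had 16145 and 7503 counts in the WT libraries and 14, 131 and 4097 counts in the KO libraries. It was lower in every KO library (−3.81 on the log2 scale, standard error 4.29, exact permutation p = 0.2). With 1 library left out the value ran from −7.52 (without KO replicate 3) to −2.80 (without WT replicate 1). The ETS factor *Gabpa* had 7 counts in each WT library and 20, 14 and 10248 counts in the KO libraries. Its difference of 8.21 (standard error 7.28) was 2.27 without KO replicate 3. *Ets2*, also an ETS factor, had 558 and 8740 counts against 15, 5000 and 559, and thus overlapped. The interferon regulatory factor *Irf2* had 212 and 2121 counts against 15, 4208 and 5463. *Klf10* had 19 and 29 counts against 4, 3127 and 78. *Cbfb*, the partner of *Runx1*, had 3322 counts in KO replicate 3 and at most 1 count elsewhere, and was thus not detectable in WT replicate 2 and KO replicate 2, where *Runx1* was counted. *Rxra*, the partner of *Pparg*, had 11 counts in KO replicate 1 and 0 elsewhere.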

How the data were processed

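RNAseq libraries of sorted aortic macrophages were made with the SMART-Seq v4 kit, a low-input cDNA amplification that does not mark strand. Per the labels and the study's methods, the authors mapped reads to GRCm38 with STAR 2.5.3a and counted them with RSEM 1.3.0 and GENCODE mouse release 25, and deposited expected counts as whole numbers without normalization. Each column was matched to its library by the code in the labels. Genes were kept with filterByExpr of edgeR 4.0.16 (minimum count 10) in R 4.3.3, scaled with TMM and tested with the quasi-likelihood test without covariates, with Benjamini-Hochberg adjustment over all genes and a threshold of 0.05. Standard errors are the log2 fold change divided by the square root of F. Log2 CPM used a prior count of 2, and exact permutation tests used the 10 splits into 2 and 3 libraries. Alternatives were DESeq2 1.42.0, RLE factors, total counts, no filter, the replicate number as a block and each library left out. The fits were tested on simulated counts. With little spread both tools recovered nearly all changed genes. With the common spread of these libraries given to every gene, edgeR recovered none and most DESeq2 calls were false. The 9 genes and the lists were chosen with earlier results of these data known. All 9 genes are named, with list genes above 3 counts in all libraries, at most 10 a list by mean CPM, and the 3 tested genes nearest to *Irf8*. *Tmem189*, *Gm15655*, *Cbfb*, *Rxra*, *Csf1r*, *Itgam*, *C1qa*, *Plin2*, *Fabp4*, *Cd36* and the markers given beside a result were chosen after their values were seen. Coordinates and exon lengths are from GENCODE M21 (GRCm38), in which all 9 identifiers matched. One gene of the family list that the naming rule covers is not reported here.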

Additional observations from a re-analysis of the deposited data

How the results depend on the processing

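The 7 tested genes kept their direction in 64 of 70 alternative values, and none had an adjusted p under 0.05 in any (lowest 0.533, *Irf8* with DESeq2). *Cebpa*, which the filter removed from the reported edgeR fit, had an adjusted p of 0.153 with DESeq2, and of 0.655 without the filter, 0.668 without WT replicate 1 and 0.759 without WT replicate 2 with edgeR. The 6 reversals were those of *Spi1*, *Maf*, *Runx1* and *Fli1*. Leaving out each library gave log2 fold changes from −2.59 to 1.81 for *Spi1*, −0.38 to 7.02 for *Maf*, −2.16 to 11.72 for *Runx1* and −1.10 to 11.99 for *Fli1*. They ran from 1.19 to 3.42 for *Cebpb*, −4.02 to −0.58 for *Irf8* and 0.40 to 8.70 for *Klf4*. Where 1 WT library is left, it is assumed to vary like the KO libraries. The 11.72 of *Runx1* and the 11.99 of *Fli1* were set against WT replicate 1 alone. That library had 0 counts of both genes, so that their size is not a measured fold. Both genotypes have replicates numbered 1 and 2. The difference between these replicates correlated at 0.18 between the genotypes over 7905 genes, which are not independent replicates, and nothing in the labels ties same-numbered libraries together. With the replicate block, on the 4 libraries that carry these numbers, 0 genes were called, and the direction reversed for *Runx1* (2.51) and *Fli1* (−0.71). Over all genes, edgeR called 0 genes under every alternative run, and DESeq2 called 790. On simulated counts with the spread of these libraries, edgeR likewise made no calls and most calls of DESeq2 were false. These counts gave every gene the same spread, and DESeq2 was run there only on genes that passed the filter. They thus do not show how many of the 790 calls were false. The median log2 fold change of all genes was 0.78 with TMM, 1.24 with RLE and 0.13 with total counts, and no direction among the 7 genes changed between these scalings. Depth limits what can be said of genes with few counts. The small number of libraries and the spread between them also limit what can be said of genes with many. Levels of the genes above 3 counts in all libraries spanned a median of 163-fold between libraries.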

Other observations

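Of 28 genes reported as targets of these factors, 14 exceeded 3 counts in all 5 libraries, and 4 of the 9 factors did so. *Lyz2*, *Cst3*, *C1qb*, *Ctss* and *Tyrobp* had at least 28660 counts in every library, the lowest being *Ctss* in WT replicate 1. None of the 25 tested targets had an adjusted p under 0.05 (0 genes) or an unadjusted p under 0.05 (0 genes) with edgeR. The log2 fold change, KO minus WT, was positive for 17 and negative for 8, with a median of 0.53, against 0.78 over all genes tested. *Cst3*, which encodes the protease inhibitor cystatin C, had 120662 and 141078 counts in the WT libraries and 475684, 272457 and 386342 counts in the KO libraries (log2 fold change 2.07, standard error 1.61). *Tyrobp*, which encodes the adaptor DAP12, had 44836 and 55684 counts against 229712, 131862 and 123204 (2.33, standard error 2.02). Without KO replicate 1 these values were 0.51 and 0.56. With total counts they were 1.19 and 1.42, and with RLE factors 2.94 and 3.27. Of the 25 tested targets, *Cst3* and *Tyrobp* were without overlap and higher in the KO libraries (2 genes, against 6.68% of all genes tested), and *Lyz2* was without overlap and lower (1 gene, against 4.54%). *Lyz2* had 21580 and 22550 CPM in the WT libraries and 13340, 20040 and 17310 CPM in the KO libraries (log2 fold change −0.39, standard error 1.32). Scaled to total counts its genotypes overlapped, with 22470 CPM in WT replicate 2 and 23960 CPM in KO replicate 2. Per the study's methods the KO mice, and not the floxed WT mice, carried Cre at the *Lyz2* locus. The part of that allele in the *Lyz2* levels cannot be told apart from that of *Zeb1* loss. *Cd14*, *Il1b* and *Ccl2* had 33, 6 and 6 counts in KO replicate 1 and at least 59319, 14309 and 5397 in the other 4 libraries. *Cybb*, the catalytic subunit of the phagocyte NADPH oxidase, had 66 counts in WT replicate 1 and 2663 to 54948 in the other libraries.

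The targets named next were chosen after their values were seen. In KO replicate 1, with 15 counts of *Spi1*, the PU.1 target *Csf1r* had 25 counts and *Itgam* 0, whereas *Tyrobp* had 229712. In the same library *C1qa*, *C1qb* and *C1qc*, which encode the chains of complement C1q and neighbour each other in the genome, had 5, 398502 and 257 counts. In WT replicate 1 they had 0, 38760 and 8364 counts. *Plin2*, which coats lipid droplets and responds to PPARγ, had 66990 counts in WT replicate 2 and 84750 in KO replicate 2, both libraries with 0 counts of *Pparg*. It had 111914 counts in KO replicate 3, the library with counts of *Pparg*, and 0 and 3 counts in WT and KO replicate 1. The scavenger receptor gene *Cd36*, also a PPARγ target, had 23754 counts in KO replicate 3 and 8 to 4099 in the other libraries. *Fabp4*, another PPARγ target, had 9170 and 30457 counts in WT and KO replicate 1, 1793 in WT replicate 2, 554 in KO replicate 3 and 0 in KO replicate 2.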
